A study of Homo sapiens with 5 samples.

Results

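EGFR, SEC61G, LANCL2 and VOPP1 are 4 genes that lie side by side in band 7p11.2 of the short arm of chromosome 7. They were chosen by name, with their levels in these libraries already known, as EGFR and the neighbours that are often amplified with it in tumours. All transcripts that the GENCODE release 44 annotation assigns to each gene were summed. The 4 genes are 4 of 26426 genes with at least 1 read and of 13492 genes with enough reads to be tested, and all 4 passed that read filter. Since the choice used the levels, the levels, ratios and isoform shares of the 4 genes are given as descriptions without a test.

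NCI-H1975 and HCC827 are established human lung adenocarcinoma cell lines. The labels give NCI-H1975 RNA sequins mixA and HCC827 RNA sequins mixB, which are sets of synthetic spike-in transcripts; the sequin reads, given below, go against this for HCC827. The RNA of both lines was joined in 5 ratios by mass, with 1 library at each, which put the HCC827 part at 0, 25, 50, 75 or 100%. Libraries are written as NCI-H1975 to HCC827, from 100:0 (NCI-H1975 alone) through 75:25 and on to 0:100 (HCC827 alone), and poly(A) RNA was read as PCR-amplified cDNA on a nanopore PromethION. No drug, genotype change or time course was part of the design. Per the labels' protocols, 1 RNA preparation of each line fed all 5 libraries, so differences between cultures of a line were not measured. Ratios between the pure libraries compare those preparations and cover counting error only. HCC827 is known from other work to carry extra copies of EGFR. Copy number was not measured here, and RNA per cell and gene copies cannot be told apart in these tables.

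EGFR is a receptor tyrosine kinase of the cell surface. Binding of ligands such as EGF joins receptors into pairs, the kinase domains phosphorylate the tails, and adaptor proteins that dock there pass the signal to the RAS, PI3K and STAT pathways. Activated receptor is tagged with ubiquitin, taken into endosomes and sorted to lysosomes. EGFR mutation and amplification are among the best known drivers of lung adenocarcinoma, and soluble forms made from shortened EGFR transcripts hold the ligand-binding side without the membrane anchor. SEC61G encodes the gamma subunit of the Sec61 channel, through which newly made secretory and membrane proteins enter the endoplasmic reticulum. LANCL2 encodes a membrane-associated relative of bacterial lanthionine synthetase C. VOPP1 encodes a protein of intracellular vesicles that was named for its overexpression in cancers.

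On GRCh38, SEC61G (ENSG00000132432.14, chromosome 7, 54752250 to 54759974, minus strand) is followed by EGFR (ENSG00000146648.21, 55019017 to 55211628, plus strand). LANCL2 (ENSG00000132434.10, 55365337 to 55433737, plus strand) comes next, and VOPP1 (ENSG00000154978.13, 55436056 to 55572988, minus strand) closes the row. The row spans 820.7 kb. The gaps to EGFR are 259 kb for SEC61G, 153.7 kb for LANCL2 and 224.4 kb for VOPP1. EGFR-AS1, the antisense gene inside EGFR, and the pseudogene SEC61GP1 had 0 reads in every library, where a count of 0 allows up to 3 reads. SEC61G-DT, a divergent transcript that overlaps SEC61G, had 10 reads in all.

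Sequence of 2 kinds is shown. The bases upstream of the EGFR start are given as a description, and promoter activity was not measured. The ends of the short EGFR forms are shown because they set the short forms apart from the full-length transcript. The 250 bases before the start of the full-length transcript EGFR-201 (RefSeq, GRCh38.p14, chr7:55018767-55019016, plus strand) are given 5′ to 3′ with matches to the GC box, GGGCGG or its reverse complement CCGCCC, in capitals.
EGFR promoter: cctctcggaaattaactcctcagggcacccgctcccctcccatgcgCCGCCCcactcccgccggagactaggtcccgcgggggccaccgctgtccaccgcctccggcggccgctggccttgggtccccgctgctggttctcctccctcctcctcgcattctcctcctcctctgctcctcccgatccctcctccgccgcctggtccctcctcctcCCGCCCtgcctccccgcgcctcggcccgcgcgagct
The window has a GC content of 73.6%, higher than that of 86.9% of 35116 human promoter windows of the same length, whose median is 58.0%. It holds 2 GC boxes, no TATAAA and no CCAAT on either strand. Of all 35116 windows, 42.6% hold a GC box, 10.7% a TATAAA or TTTATA and 32% a CCAAT or ATTGG. RefSeq windows were matched for 3 of the 4 genes by symbol. There were 2 entries for EGFR, 7 for VOPP1 and 1 for SEC61G, and 1 window of each gene is described. The window of VOPP1 has a GC content of 75.2% with 1 GC box, and that of SEC61G has 62.4% with 1 GC box and 1 CCAAT. The SEC61G window lies inside the annotated gene. The start it precedes is 763 bases from that of SEC61G-203, the SEC61G transcript with most reads. The motifs are matches of letters and say nothing on whether a factor binds.

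Of the short forms, EGFR-202 and EGFR-203 share 1880 coding bases (626 codons) with EGFR-201 and leave it at the end of exon 15 of 28, whose last base is chr7:55165437. EGFR-204 shares 1207 coding bases (402 codons), up to the end of exon 10 at chr7:55156832, and then reads on into the intron. The last 12 shared bases are in lower case below, and the bases that follow in each transcript (GENCODE release 44, GRCh38, plus strand) are in capitals, up to the stop codon where it falls within 15 bases.
EGFR-201, exon 15: ctgcacctacggATGCACTGGGCCAGG
EGFR-202: ctgcacctacggGTCCTAA
EGFR-203: ctgcacctacggGCCAGGAAATGAGAG
EGFR-201, exon 10: aggaaatcacagGGTTTTTGCTGATTC
EGFR-204: aggaaatcacagGTTTGAGCTGA
EGFR-202 thus adds 7 coding bases of its own, EGFR-204 adds 11 and EGFR-203 adds 238. Their proteins have 628, 405 and 705 residues against 1210 in the full-length receptor. In the full-length protein, the most hydrophobic stretch of 21 residues past the first 50 is at residues 646 to 666 (mean Kyte-Doolittle hydropathy 2.53). It lies after the point where each short form leaves the shared sequence.

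The libraries held 2932250 to 4058751 reads assigned to transcripts, and 11862 to 13471 genes had at least 10 reads. Sequin reads numbered 5475 in the 100:0 library, 4678 at 75:25, 2830 at 50:50 and 1269 at 25:75. The 0:100 library had 0, which allows up to 3, although its label names sequins mixB. The number was thus lower at each step away from NCI-H1975. Ratios between the pure libraries and positions in the mixture need the 0:100 library and cannot be given without it. Of 23 genes named below as called by a test, 17 kept their call without it, and the 6 others are named with their values. The mitochondrial share ran from 5.64% in the 100:0 library to 8.85% in the 0:100 library. All 7 epithelial markers (EPCAM, KRT7, KRT8, KRT18, KRT19, CDH1 and NKX2-1) had at least 140 reads in each library, with 19064 to 42772 reads in sum. The leukocyte markers PTPRC and CD3E were at 0 throughout, and the 4 leukocyte markers summed to 0 to 19 reads. The 3 endothelial markers summed to 3 or 4 reads. The 4 fibroblast markers summed to 534 reads at 100:0 and 19 at 0:100, with DCN at 0 throughout. In each library only 1 of the 4 had at least 10 reads, so that sum rests mostly on 1 gene. The part that sequins and mitochondrial reads had in any result was not tested.

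The 4 genes were several times higher in the HCC827 library than in the NCI-H1975 library, and their levels followed the mixing order. The ratio of the 0:100 to the 100:0 library was highest for LANCL2, at 18.7, and lowest for EGFR, at 10.4. Together the 4 genes took 0.0562% of all reads (95% Wilson interval 0.0535 to 0.05895) in the 100:0 library. Their share was 0.241% at 75:25, 0.361% at 50:50 and 0.506% at 25:75, and reached 0.573% (0.564 to 0.581) in the 0:100 library. Levels below are counts-per-million values (CPM) scaled by TMM, a method that sets libraries to a common level over most genes.

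EGFR, the receptor, had 315 reads in the 100:0 library, 1522 at 75:25, 2054 at 50:50, 2193 at 25:75 and 2582 in the 0:100 library. Its level was 92.8, 353, 527, 767 and 960 CPM in that order. Each library was above the one with less HCC827, and the 95% counting intervals of the 5 libraries, from 82.8 to 104 CPM at 100:0 and from 923 to 998 CPM at 0:100, did not overlap. The pure libraries differed by a ratio of 10.4 (95% counting interval 9.20 to 11.7).

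SEC61G, the translocon subunit, had 941, 6331, 9199, 10352 and 11297 reads from the 100:0 to the 0:100 library. Its levels were 277, 1467, 2361, 3618 and 4201 CPM, again in the mixing order and without overlap of intervals. The ratio between the pure libraries was 15.2 (14.2 to 16.2). That interval lies above the interval for EGFR.

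LANCL2, the LanC-like protein, had 58, 438, 599, 711 and 857 reads, which were 17.1, 101, 154, 249 and 319 CPM. The 58 reads at 100:0 leave its ratio of 18.7 with a wide interval of 14.3 to 24.8, which overlaps that of SEC61G and not that of EGFR or VOPP1.

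VOPP1, the vesicle protein, had 333, 1502, 2150, 2309 and 2975 reads, or 98.1, 348, 552, 807 and 1106 CPM. Its ratio of 11.3 (10.1 to 12.7) overlapped the interval for EGFR. With library totals in place of TMM, the 4 ratios were lower by a common factor: 7.77 for EGFR, 11.4 for SEC61G, 14.01 for LANCL2 and 8.47 for VOPP1. As a description, the log2 slope on the HCC827 mass fraction, fitted to all 5 libraries, was 2.96 for EGFR, 3.44 for SEC61G, 3.285 for LANCL2 and 3.13 for VOPP1. Without the 0:100 library it was 3.67, 4.51, 4.09 and 3.74 in that order, and without the 100:0 library 1.955, 2.08, 2.26 and 2.225. The log2 ratios of the pure libraries were 3.37, 3.92, 4.22 and 3.495, each above the slope over all 5 libraries. A level that is linear in the mass share is curved on the log2 scale. The straight slope thus depends on which libraries are fitted and need not rank the genes as the ratios do.

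**Figure D1:**
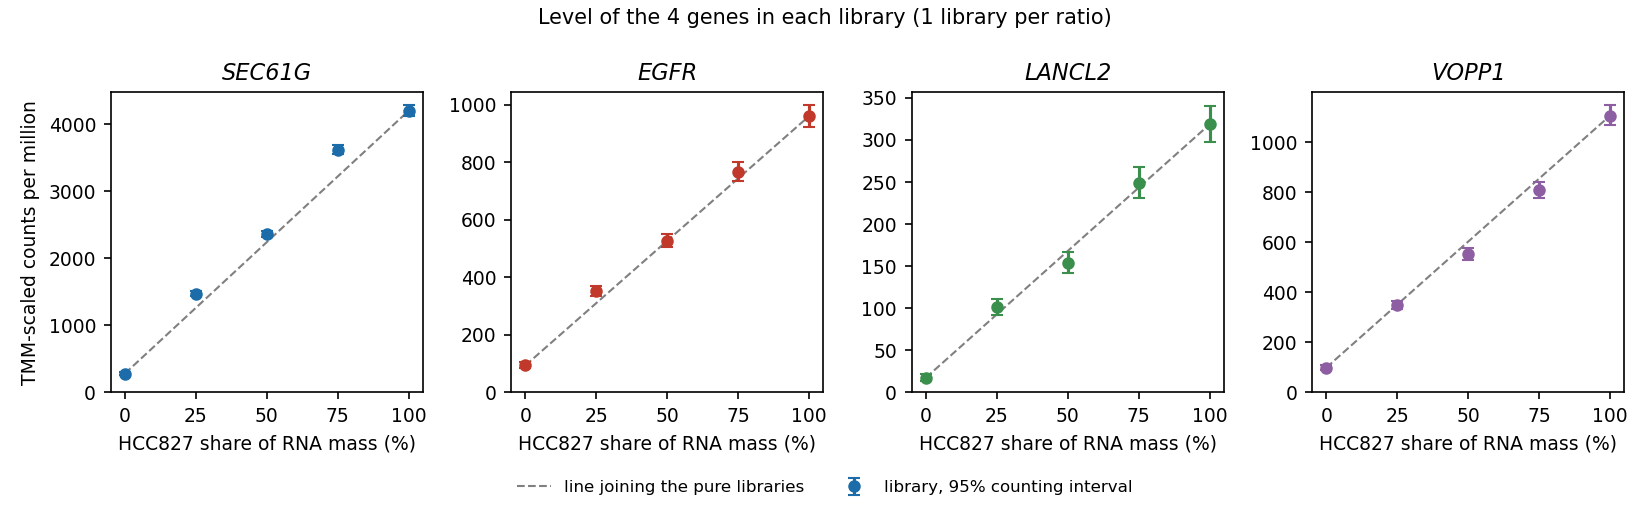
TMM-scaled CPM of each of the 4 genes (vertical axes, each from 0) against the HCC827 share of RNA mass in percent, with 1 point per library and its 95% counting interval. Dashed lines join the pure libraries; all 4 genes run in the mixing order, and SEC61G at 25:75 (3618) lies above its line.

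The levels of different genes are compared here per transcript length. On that scale, in TPM-like units that sum to the same total in every library, SEC61G was at 720 in the 100:0 library and 6811 in the 0:100 library. These levels had ranks 191 and 22 among all genes with a read. VOPP1 was at 48.3 and 342.5, ranks 2152 and 301. EGFR was at 16.6 and 100.4, ranks 5120 and 840. LANCL2 was at 8.89 and 89.55, ranks 7383 and 937. The order SEC61G, VOPP1, EGFR, LANCL2 was thus that of both pure libraries. It was also the order of the pure libraries in CPM, which are not divided by length. There the intervals of VOPP1 (87.85 to 109.2) and EGFR (82.83 to 103.6) overlapped at 100:0. At 75:25 EGFR was slightly above VOPP1 in CPM (352.6 against 347.9). The ranks depend on the division, which lowers genes with long transcripts such as EGFR-201 (9905 bases). In CPM, EGFR was at 960 and LANCL2 at 319 in the 0:100 library, much further apart than per length. Whether division by length suits nanopore cDNA reads was not tested.

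The reads of each neighbour per EGFR read show how evenly the row moved. A value is compared here only between libraries, since the genes differ in length. SEC61G had 2.99 reads per EGFR read (95% interval 2.63 to 3.41) in the 100:0 library. It had 4.16 at 75:25, 4.48 at 50:50, 4.72 at 25:75 and 4.38 (4.19 to 4.57) in the 0:100 library. The 100:0 library was lowest and its interval did not meet that of the 0:100 library. LANCL2 had 0.184 reads per EGFR read (0.137 to 0.244) at 100:0. The later libraries gave 0.288, 0.292, 0.324 and 0.332 (0.307 to 0.359 at 0:100), so here too the pure libraries did not overlap. VOPP1 had 1.06 (0.904 to 1.24), 0.987, 1.05, 1.05 and 1.15 (1.09 to 1.22), and its pure libraries did overlap. These ratios need no scaling between libraries.

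In a mixture, a level should lie between those of the pure libraries as far along as the mass share. This holds only if both lines give the same poly(A) RNA per mass and the scaling is right, and neither was measured. The position of EGFR was 29.95% ± 1.30 (counting SE) of the way at 75:25, 50.1% ± 1.76 at 50:50 and 77.7% ± 2.54 at 25:75. Over the 670 genes at least 4-fold higher in the 0:100 library the median positions were 28.5, 46.3 and 71.7%. SEC61G was at 30.3% ± 0.583, 53.1% ± 0.832 and 85.2% ± 1.25. Its place at 25:75 was above the upper quartile of the 670 genes, 82%, and 10.2 points above the mass share. LANCL2 was at 27.98% ± 1.97, 45.3% ± 2.68 and 76.7% ± 4.15. VOPP1 was at 24.8% ± 1.10, 45.0% ± 1.52 and 70.3% ± 2.19, the lowest of the 4 genes in each mixed library. The positions depend on the scaling: with library totals alone EGFR was at 36.8, 58.0 and 83.2%, SEC61G at 37.2, 61.5 and 91.3%, LANCL2 at 34.25, 52.3 and 82.1% and VOPP1 at 30.2, 51.9 and 75.1%, with medians of 34.3, 53.1 and 75.7% over 445 genes.

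**Figure D2:**
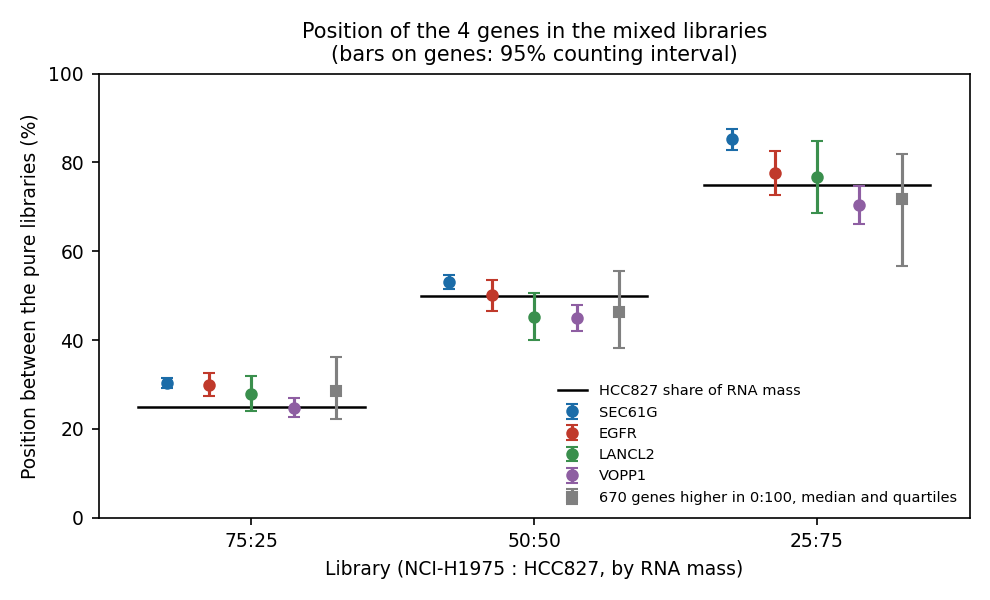
Position of each gene between the pure libraries in percent (vertical axis) in the 3 mixed libraries (horizontal axis). Coloured points are the 4 genes with 95% counting intervals, grey squares the median and quartiles of 670 genes at least 4-fold higher in the 0:100 library, and black lines the HCC827 mass share; SEC61G at 25:75 (85.2%) is the point farthest above its line.

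EGFR reads were almost all assigned to the full-length transcript in both lines. The class comes from the annotation, and counts do not show whether a read spans the coding sequence. GENCODE release 44 has 13 EGFR transcripts, the tables list 9, and 8 had reads, each at least 10 in sum. EGFR-201 (9905 bases, 28 exons) took 303, 1446, 1978, 2116 and 2459 reads from the 100:0 to the 0:100 library. These were 96.2% (95% Wilson interval 93.5 to 97.8), 95.01%, 96.3%, 96.5% and 95.2% (94.4 to 96.0) of EGFR reads. The intervals of the pure libraries overlapped. The full-length transcript had a ratio of 10.2 (9.09 to 11.6) between the pure libraries, close to that of the gene.

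The 3 short soluble forms, whose ends are printed above, took 5, 59, 57, 48 and 82 reads. Their share of EGFR reads was 1.59% (0.680 to 3.66) in the 100:0 library, 3.88% (3.02 to 4.97) at 75:25, 2.78% (2.15 to 3.58) at 50:50, 2.19% (1.66 to 2.89) at 25:75 and 3.18% (2.57 to 3.93) in the 0:100 library. The pure libraries could not be told apart at this depth. The intervals at 75:25 and 25:75 did not meet, and the share did not follow the mixing order. All 5 libraries were made from the same 2 RNA preparations, so a mixed share should lie between the pure ones. The 3.88% at 75:25 lay above both. The intervals cover counting error only, and error in assigning reads to forms was not measured. The gap is thus not read as a difference in the RNA. In level, the short forms went from 1.47 CPM at 100:0 through 13.7, 14.6 and 16.8 to 30.5 CPM at 0:100. That is a ratio of 20.7 (8.52 to 65.4), whose interval contains that of the full-length form.

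Of the short forms, EGFR-204, which ends in the intron after exon 10, had the most reads: 4, 25, 28, 27 and 43. EGFR-202 had 0, 16, 19, 9 and 20 reads, and the 0 at 100:0 allows up to 3. EGFR-203 had 1, 18, 10, 12 and 19. Of their stretches of 31 bases, EGFR-204 has 118 (7.66%) that the other EGFR transcripts compared lack, EGFR-202 has 112 (5.07%) and EGFR-203 has 730 (25.7%). EGFR-205 and EGFR-207 were left out of this comparison. The division of reads among the EGFR forms is thus uncertain as well. Per deposited length the short forms took 6.97, 15.6, 12.2, 9.62 and 13.6% of EGFR, because the full-length transcript is several times longer. Whether this division suits nanopore cDNA reads was not tested. Its total includes EGFR-205 and EGFR-207, described below, which at their short deposited lengths made up 17.6% at 100:0. EGFR-206, which codes 1091 residues, had 3, 12, 13, 17 and 31 reads. EGFR-208, with no coding sequence annotated, had 0, 2, 1, 3 and 5. EGFR-205 and EGFR-207 had deposited lengths (691 and 452 bases) that differ from release 44 (9700 and 2407), so their 26 reads in sum were put in no class.

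**Figure D3:**
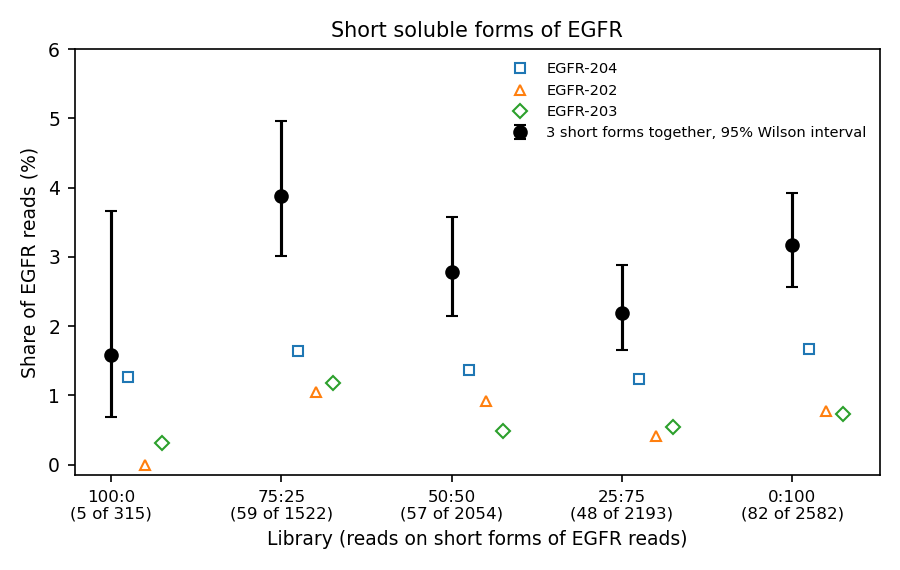
Share of EGFR reads in percent (vertical axis) on the 3 short soluble forms together (black, 95% Wilson intervals) and on each form (open symbols, without intervals) in the 5 libraries, with the read counts under each. The summed share runs from 1.59% at 100:0 to 3.88% at 75:25 and does not follow the mixing order.

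The transcript shares of the neighbours differed between the pure libraries by little more than counting error. In SEC61G, 4 transcripts that all code the same 68 residues held nearly all reads. SEC61G-203 took 37.2% (34.2 to 40.3) in the 100:0 library and 40.7% (39.8 to 41.6) in the 0:100 library, SEC61G-201 took 30.2 and 29.8%, and SEC61G-202 took 28.6 and 27.1%. SEC61G-204 took 3.61% (2.60 to 5.01) at 100:0 and 2.25% (1.99 to 2.54) at 0:100, and these intervals did not overlap. The same held for SEC61G-205, annotated as a retained intron, on only 3 and 2 reads. It took 0.319% (0.1085 to 0.933) at 100:0 and 0.0177% (0.00486 to 0.0645) at 0:100. SEC61G-201 has no stretch of 31 bases that the other SEC61G transcripts lack and SEC61G-202 has 3, so the division between them is uncertain.

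LANCL2-201, which codes the protein of 450 residues, took 63.8% (50.9 to 75.0) of LANCL2 reads at 100:0 and 73.8% (70.7 to 76.6) at 0:100. LANCL2-202, annotated as a target of nonsense-mediated decay, took 34.5% (23.6 to 47.3) and 26.1% (23.3 to 29.2), on 20 and 224 reads. For both transcripts the intervals overlapped. VOPP1-201 (172 residues) took 70.0 and 72.2% of VOPP1 reads. VOPP1-207 (105 residues) took 11.1% in both pure libraries, and VOPP1-208 (163 residues) took 12.9 and 11.1%. VOPP1-201 has 43 stretches of 31 bases (1.48%) that the other VOPP1 transcripts lack, VOPP1-207 has 158 (5.57%) and VOPP1-208 has 85 (2.96%). The division among them is thus uncertain.

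**Figure D4:**
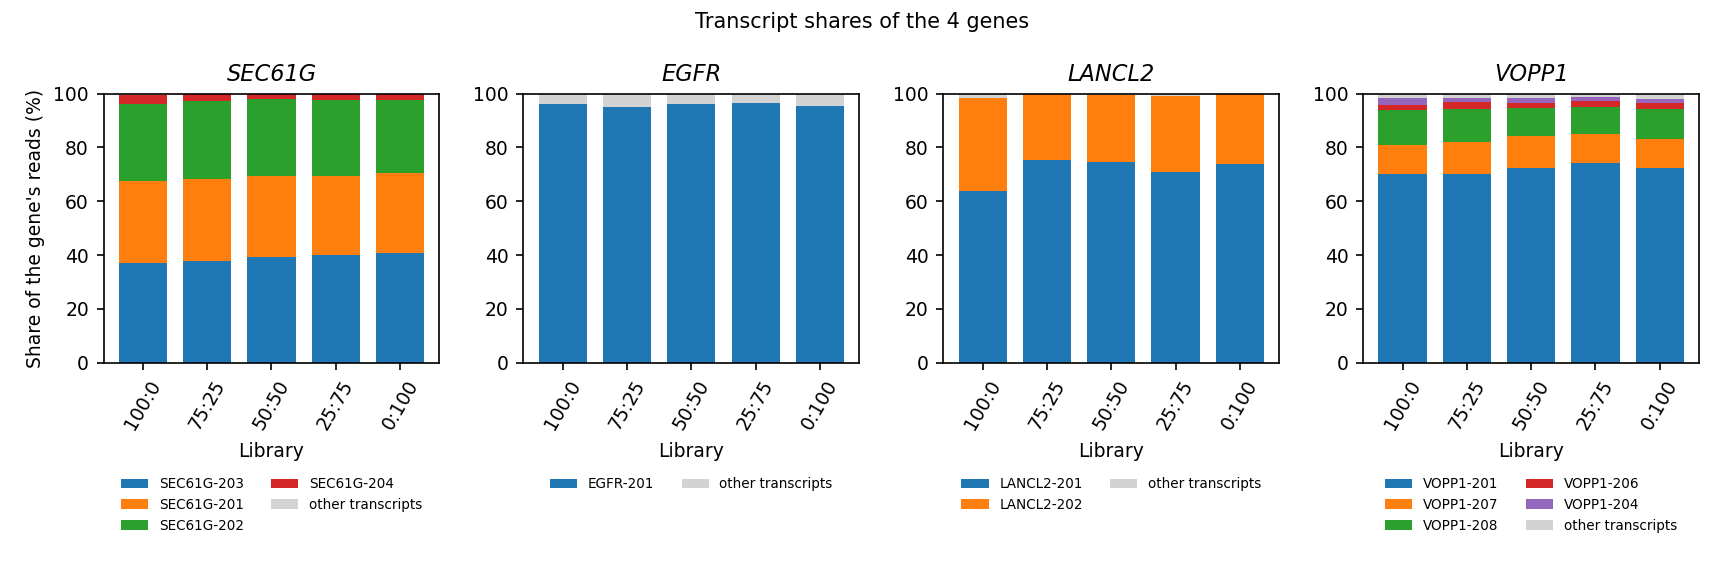
Share of each gene's reads in percent (vertical axes, stacked to 100) by transcript in the 5 libraries. Transcripts with at least 2% in a library have a colour and the others are grey; EGFR-201 holds 95.01 to 96.5% of EGFR reads throughout.

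The genes that flank the row were tested, since they were taken by distance: all genes within 3 Mb of EGFR on chromosome 7 other than the 4. The test asked whether log2 level had a slope across the 5 libraries when set against the mass fraction of HCC827 (edgeR quasi-likelihood test, Benjamini-Hochberg adjustment over 13492 genes, threshold 0.05). The slope gives, on the log2 scale, how much the fitted level differs between pure HCC827 and pure NCI-H1975 RNA. Of 175 flanking genes, 142 had no read and 10 had enough reads to be tested. All 10 lie on the VOPP1 side within 1 Mb of EGFR. The 31 genes on the SEC61G side had at most 12 reads each. Among the 10 tested, 7 rose, 0 fell and 3 did not pass, with a median slope of 1.38. Without the 0:100 library 6 of 9 tested rose, and with library totals in place of TMM 6 rose and 1 fell. Over all genes tested 45.8% passed, 23.5% rising and 22.3% falling, and the median slope was -0.0347.

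Nearest to VOPP1 of the tested genes is FKBP9P1 (ENSG00000291029.1), 469.4 kb from EGFR, an entry annotated as a long noncoding RNA that overlaps a pseudogene entry of the same name on the same strand. It had 5.30 CPM at 100:0 and 1.49 at 0:100 (slope -1.44 ± 0.596 SE, adjusted p = 0.064). With library totals in place of TMM its adjusted p was 0.0193, with a range of 0.0193 to 0.356 over the alternatives that could be fitted. ENSG00000249773, a gene that overlaps its neighbours on the same strand, had 3 and 11 reads (adjusted p = 0.276). ZNF713, a zinc finger gene, rose from 6.19 to 13.0 CPM (slope 1.22 ± 0.36, adjusted p = 0.0145). Without the 0:100 library its adjusted p was 0.0714, with a range of 0.00917 to 0.0755 over all alternatives.

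The other called genes lie from 740.2 kb outward. NIPSNAP2, which encodes a mitochondrial protein, rose from 43.3 to 126 CPM (slope 1.46 ± 0.153, adjusted p = 1.36e-05). MRPS17, a mitochondrial ribosomal protein gene that overlaps NIPSNAP2 on the same strand, rose from 94.0 to 311 CPM (slope 1.70 ± 0.142, adjusted p = 4.05e-06). PSPH, the phosphatase of the last step of serine synthesis, had 116 and 141 CPM (slope 0.294 ± 0.12, adjusted p = 0.0601). It lies between called genes. CCT6A, a subunit of the cytosolic chaperonin, rose from 378 to 945 CPM (slope 1.30 ± 0.117). SUMF2 rose from 137 to 431 CPM and PHKG1, the catalytic subunit of a phosphorylase kinase, from 21.5 to 69.2 CPM. Both overlap on opposite strands, and how strand was used in counting is not given in the sources used here. CHCHD2, a mitochondrial protein gene 889.9 kb from EGFR, had the largest slope of the 7 at 1.77 ± 0.154 (657 to 2273 CPM, adjusted p = 4.69e-06).

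The pure-library ratios of the 7 called flanking genes were 2.10 to 3.46, against 10.4 to 18.7 for the 4 genes of the row. The 95% counting intervals of the former reached at most 4.28 and those of the latter began at 9.20. As the 4 genes were chosen by their levels, this gap is a description.

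**Figure D5:**
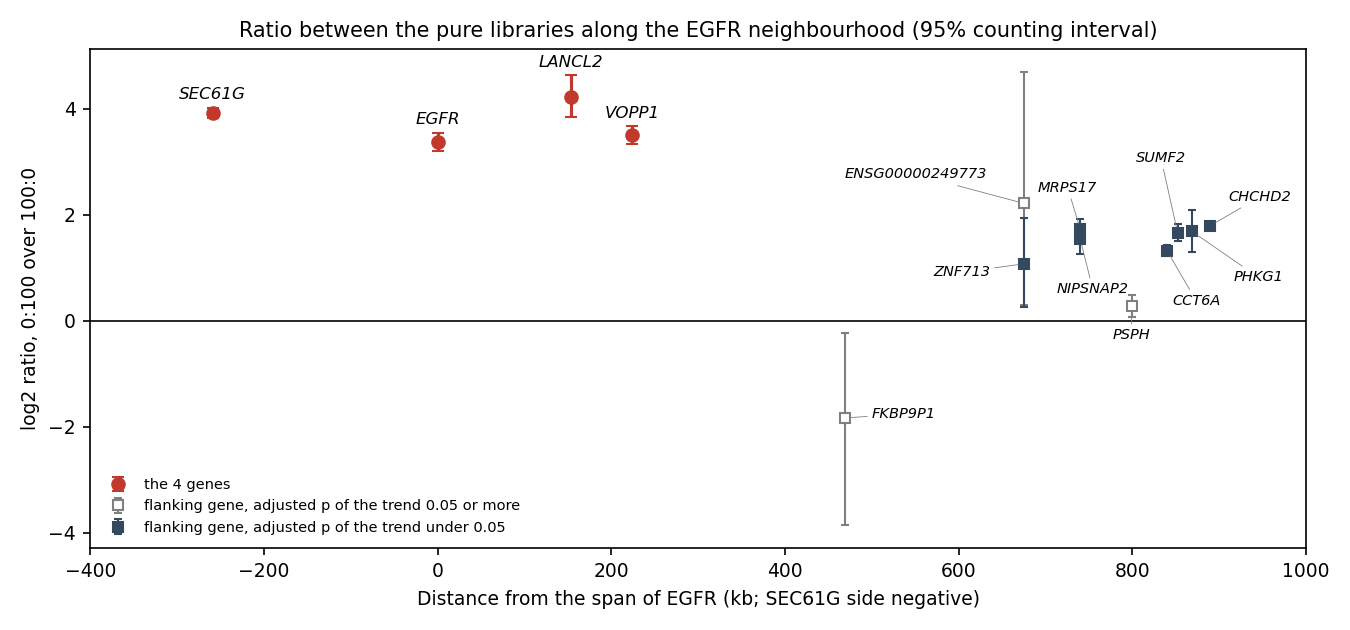
Log2 ratio of the 0:100 to the 100:0 library (vertical axis, 95% counting intervals) against distance from EGFR in kb (horizontal axis, SEC61G side negative). Red points are the 4 genes (log2 ratios 3.37 to 4.22), filled squares flanking genes with an adjusted p of the trend under 0.05 and open squares the others tested; FKBP9P1 is the only point below 0.

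The partner proteins of the 4 genes were read from lists that were drawn up with earlier results of these data known. Of 14 adaptors and relays of EGFR, 1 rose, 5 fell and 8 did not pass (median slope -0.15). The 6 called of 14 are near the 45.8% of all genes. SRC, a kinase activated beside EGFR, rose from 25.0 to 60.2 CPM (slope 1.28 ± 0.178, adjusted p = 9.53e-05). PIK3CA, the catalytic subunit of PI3K, fell from 18.85 to 7.81 CPM (slope -0.999 ± 0.339, adjusted p = 0.0283). PTPN11, the phosphatase SHP2, fell from 78.7 to 43.1 CPM (slope -0.82 ± 0.161, adjusted p = 0.00117). SOS1, the exchange factor that loads RAS, fell from 28.9 to 16.0 CPM (slope -0.72 ± 0.238, adjusted p = 0.0245). Without the 0:100 library the calls of PIK3CA (adjusted p = 0.413) and SOS1 (0.228) were lost. PIK3CA was also lost without 75:25 (0.0792), and SOS1 without 75:25 (0.0516) or 100:0 (0.0833). The adjusted p over all alternatives ran from 0.00367 to 0.413 for PIK3CA and from 0.00152 to 0.228 for SOS1. The list had 3 calls without 0:100 and 3 without 100:0.

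Of 20 genes that inhibit, ubiquitinate, take up or sort the receptor, 5 rose, 7 fell and 8 did not pass (median slope -0.30), against 23.5% rising and 22.3% falling over all genes. Without the 0:100 library 4 rose and 5 fell, and with library totals 2 rose and 10 fell. LRIG1, a membrane protein that restrains EGFR, fell from 13.3 to 1.12 CPM (45 to 3 reads, slope -3.77 ± 0.528, adjusted p = 0.000101). SH3KBP1, an adaptor of CBL in receptor uptake, fell from 147 to 52.4 CPM (slope -1.49 ± 0.135, adjusted p = 6.04e-06). RAB5A, a GTPase of early endosomes, fell from 52.4 to 26.8 CPM (adjusted p = 0.0022). CBLC, a ubiquitin ligase of the CBL family, rose from 13.85 to 45.7 CPM (slope 1.53 ± 0.24, adjusted p = 0.000231). EPS15, an endocytic adaptor, rose from 15.3 to 30.9 CPM (adjusted p = 0.00551). HGS, which sorts tagged receptor on endosomes, rose from 33.9 to 59.5 CPM (adjusted p = 0.00187). Without the 100:0 library the adjusted p of EPS15 was 0.0507 (range over alternatives 0.00145 to 0.0574), and without the 0:100 library that of HGS was 0.0513 (range 0.00014 to 0.0513).

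Of 11 other genes of the Sec61 channel and its partners, 2 rose, 5 fell and 4 did not pass (median slope -0.37), against 23.5% rising and 22.3% falling over all genes. With library totals 1 rose and 9 fell. SEC61A1, SEC61B and SEC61A2 of the channel are named here after their values were seen. SEC61A2 went from 2.95 CPM at 100:0 to 0.744 at 0:100, on 10 and 2 reads (slope -2.02 ± 0.853, adjusted p = 0.0689). SEC61A1, which forms the pore, had 216, 206, 204.5, 182 and 201.2 CPM from 100:0 to 0:100 (slope -0.151 ± 0.121, adjusted p = 0.324). With library totals its slope was -0.559 with an adjusted p of 0.00187, the lowest of a range up to 0.651 over the alternatives. SEC61B had 123, 123.5, 125.5, 139 and 123 CPM (slope 0.0826 ± 0.129, adjusted p = 0.627), and with library totals a slope of -0.325 (adjusted p = 0.0489, range 0.0489 to 0.933). SSR4 and SSR2, subunits of the translocon-associated TRAP complex, rose with slopes of 1.54 ± 0.127 (215 to 669 CPM, adjusted p = 3.89e-06) and 0.437 ± 0.119 (222 to 312 CPM, adjusted p = 0.00921). SSR1 of the same complex fell (slope -0.75 ± 0.156, adjusted p = 0.0018), as did SEC63, a partner in import after translation (slope -0.71 ± 0.14, adjusted p = 0.00126). TRAM2, a translocating chain protein, fell from 22.7 to 13.0 CPM (slope -0.97 ± 0.307, adjusted p = 0.0203). Without the 0:100 library 3 of the 11 genes were called, and SSR2 (0.161) and TRAM2 (0.0557) lost their call. TRAM2 was also lost without 25:75 (0.0653). Over all alternatives the adjusted p ran from 0.00607 to 0.848 for SSR2 and from 0.00233 to 0.0653 for TRAM2. The paralog LANCL1 fell from 55.1 to 30.9 CPM (slope -0.93 ± 0.191, adjusted p = 0.00158), while LANCL2 is highest in HCC827. LANCL3 had too few reads to test.

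The genes most like EGFR in pattern were found among 11015 genes with at least 100 reads in sum, the 4 genes included in the ranking and not named as likenesses. Likeness was the root mean square difference of centred log2 levels over the 5 libraries, as a description. The nearest was MT-TQ (0.0649), a mitochondrial tRNA gene, with 248 CPM at 100:0 and 2420 at 0:100. CORO1A (0.0666), PIP4K2C (0.0811), C1orf210 (0.0900) and RAB15 (0.0969) followed, on chromosomes 16, 12, 1 and 14. At 100:0 these had 7, 116, 12 and 65 reads in that order. The counting error of the distances was not computed, and with so few reads the order of these genes is not settled. Among the neighbours, VOPP1 had rank 3 with 0.0714, SEC61G rank 63 with 0.235 and LANCL2 rank 102 with 0.305 on the same measure.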

How the data were processed

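Each of the 5 libraries has a table in which the authors deposited an estimated count of reads per transcript beside the transcript's length in bases, without scaling. All but 2 of the deposited counts were whole, and counts were rounded. The submitters' processing notes list minimap2 2.24, Salmon 1.9.0 and GRCh38. Their annotation release, and the use of strand in counting, are not given in the sources used here. Identifiers listed again (161) were summed. Of 227751 human transcripts, 224076 were paired with genes through GENCODE release 44, holding at least 98.5% of human reads in each library, and 3675 unmatched ones stayed in library totals only. No molecular identifiers were given, so intervals and limits cover counting error only, and a count of 0 was taken to allow 3 reads.

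The 4 genes and all lists were chosen with earlier results of these data known. Levels of the 4 genes carry exact Poisson intervals, pure-library ratios exact binomial intervals and shares Wilson intervals, all at 95%, with no test. Position is the level minus that at 100:0, divided by the difference of the pure libraries. Other genes were tested with edgeR 4.0.16 (R 4.3.3) by the quasi-likelihood slope on the HCC827 mass fraction over 5 libraries, with TMM scaling, a minimum of 10 reads in 2 or more libraries, and Benjamini-Hochberg adjustment at 0.05. The fit was tested on simulated data of the gene trend over 13492 genes with 200 changed. It recovered 28 of 50 genes changed 2-fold, 46 of 50 changed 4-fold and all 50 at 8-fold and at 16-fold, with 4 false calls. The simulation gave all genes the same dispersion and changed few of them, whereas 45.8% were called in the data. Its false calls thus do not give the error rate of the calls here. The fit compares RNA preparations, as no ratio was replicated. DESeq2 1.42.0, other scalings and filters, and leaving out each library served as alternatives.

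Named were all 4 genes, EGFR transcripts with at least 10 reads, neighbours' transcripts with at least 5% of a gene's reads in a pure library, all tested flanking genes, up to 3 called genes a list and direction with the largest slopes, and the 5 genes most like EGFR (prior count 0.5). SEC61G-204, SEC61G-205, SEC61A1, SEC61B and SEC61A2 were named after their values were seen. Transcripts whose deposited length was far from release 44 were neither classed nor compared with others by sequence. Short stretches of 31 bases were compared between transcripts with Biopython 1.88.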

Additional observations from a re-analysis of the deposited data

How the results depend on the processing

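Library totals in place of TMM gave log2 ratios of 3.51 for SEC61G, 2.96 for EGFR, 3.81 for LANCL2 and 3.08 for VOPP1, and moved 11 of 12 positions beyond their 95% counting interval. DESeq2 size factors moved none of 12 beyond it, by at most 1.55 points. The slope fitted over the 5 libraries was 3.44, 2.96, 3.285 and 3.13 in the same gene order. Leaving out 1 library gave slopes of 2.08 to 4.51 for SEC61G and 1.955 to 3.67 for EGFR. For LANCL2 they were 2.26 to 4.09 and for VOPP1 2.225 to 3.74. All were lowest without 100:0 and highest without 0:100. A straight log2 line through levels linear in the mass share shifts in this way. SEC61G-203 alone gave a log2 ratio of 4.05. Division by length put the short EGFR share at 6.97, 15.6, 12.2, 9.62 and 13.6% from 100:0 to 0:100, with the unclassed EGFR-205 and EGFR-207 in the total. Over all genes, 4067 (without 0:100) to 5860 (without 50:50) were called when 1 library was left out, against 6175 with all. Library totals called 6887, of which 26.3% rose against 51.3% with TMM, and moved the median slope from -0.0347 to -0.44. Under totals the flanking genes gave 6 rising and 1 falling, the uptake list 2 and 10, and the translocon list 1 and 9. PSPH turned to -0.113 and SEC61B to -0.325 (adjusted p = 0.0489) under totals, where SEC61A1 (0.00187) and FKBP9P1 (0.0193) also became called. PSPH passed with DESeq2 size factors (adjusted p = 0.0471, range 0.0471 to 0.444). The adaptor list had 3 calls by the DESeq2 Wald test and 3 to 8 with 1 library left out, and the translocon list 3 to 7. Of 23 named genes called, 15 kept their call under all 10 alternatives. LRIG1 kept it under 9 and had too few reads for the filter of 10 reads in every library. ZNF713, PIK3CA, SOS1, HGS, EPS15, TRAM2 and SSR2 did not. No paired analysis was possible because each ratio has 1 library. Ratios of LANCL2 and shares of short EGFR forms at 100:0 are limited by 58 and 5 reads.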
